A study of Mus musculus with 8 samples.

Results

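A group of 10 inflammatory cytokines and effectors was followed in epididymal white fat, a visceral depot, of male mice with obesity. The genes are Tnf, Il1b, Il1rn, Il6, Il10, Il12b, Il18, Nos2, Ptgs2 and Saa3, chosen by name, and all 10 were present among the 55487 gene identifiers of the deposited tables. RNA was sequenced from 4 AKO mice (numbers 3, 8, 9 and 11) and 4 WT mice (numbers 2, 3, 4 and 5), on a C57BL/6 background and made obese by high-fat diet (HFD). AKO mice are labelled Slc16a1 -/- and carry AP2-cre with Slc16a1 flox/flox, whereas WT mice carry Slc16a1 flox/flox without Cre, so that both groups share the floxed alleles. The labels do not give the age of the mice. Slc16a1 encodes MCT1, a membrane carrier of lactate and other monocarboxylates. The AP2 promoter is that of Fabp4, a fatty acid binding protein gene of fat cells that macrophages also express.

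In obese fat, macrophages gather around dying fat cells and release cytokines. TNF, IL-1β and IL-6 are the classical inflammatory cytokines. IL-10 and the IL-1 receptor antagonist restrain inflammation. Inducible nitric oxide synthase and cyclooxygenase 2 make the mediators nitric oxide and prostaglandins, and serum amyloid A3 is an acute phase protein made by fat cells and macrophages.

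Values are TPM (a length-corrected share of each library), so read depth is unknown. Markers of fat cells were abundant, with Adipoq between 1864 and 5170 TPM, as were macrophage markers, with Lyz2 between 1216 and 2664 TPM. WT mouse 4 stood apart, with the lowest macrophage score of the 8 mice (6.39, the mean log2(TPM + 1) of 10 markers, against 7.27 to 8.34 in the others) and the highest fat cell score (10.6, against 9.68 to 10.4). The targeted gene does not check the genotype labels, since summed Slc16a1 was 22.4, 21.5, 27.1 and 25.03 TPM in AKO mice and 23.4, 28.5, 15.7 and 17.7 TPM in WT mice. Traces of epididymal genes were present in WT mouse 4 (Crisp1 at 7.57 TPM) and WT mouse 3 (Lcn5 at 3.98 TPM). Neutrophil genes were mixed. Ly6g was listed at 0 in all 8 libraries, and Cxcr2 and Mpo reached at most 0.22 and 0.59 TPM. In contrast, S100a8 had 13.25 to 65.4 TPM, Csf3r 1.52 to 3.76 TPM and S100a9 1.13 to 4.41 TPM.

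In all, 5 members averaged above 1 TPM over the 8 mice. In falling order these were Saa3 (186.3 TPM), Il1rn (54.5 TPM), Nos2 (5.68 TPM), Il18 (4.77 TPM) and Tnf (1.55 TPM). The other 5 averaged less than 1 TPM, at 0.789 for Il10, 0.699 for Il1b, 0.495 for Ptgs2, 0.233 for Il12b and 0.204 for Il6. Saa3, Il1rn, Nos2 and Il18 were above 1 TPM in every mouse, and Tnf in 7 of 8, with 0.88 TPM in WT mouse 4. Il1b and Il10 passed 1 TPM in 2 mice each, and Ptgs2, Il12b and Il6 in 0. Saa3 lay above Il1rn, and Il1rn above Nos2, in 8 of 8 mice. Nos2 exceeded Il18 in 6 of 8 mice and Il10 exceeded Il1b in 3 of 8, so the order of these neighbours did not hold across mice. By mean level Saa3 ranked at position 754 of the 14172 genes tested and Tnf at position 13304.

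No member passed the threshold between the genotypes. The test was limma on log2(TPM + 1) over the 14172 genes that reached 1 TPM in 4 or more mice, with Benjamini-Hochberg adjustment and an FDR (false discovery rate) threshold of 0.05. It covered 5 of the 10 members, the same 5 that averaged above 1 TPM. Of these, 0 were called, beside 4 of all genes tested (0.0282%). At an unadjusted limma p below 0.05 there was 1 member, Il18, which was lower in AKO, as were 2.17% of all genes tested at that p. The tested members had a median log2 difference (AKO minus WT) of 0.08, beside 0.02 for all genes tested.

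**Figure D1:**
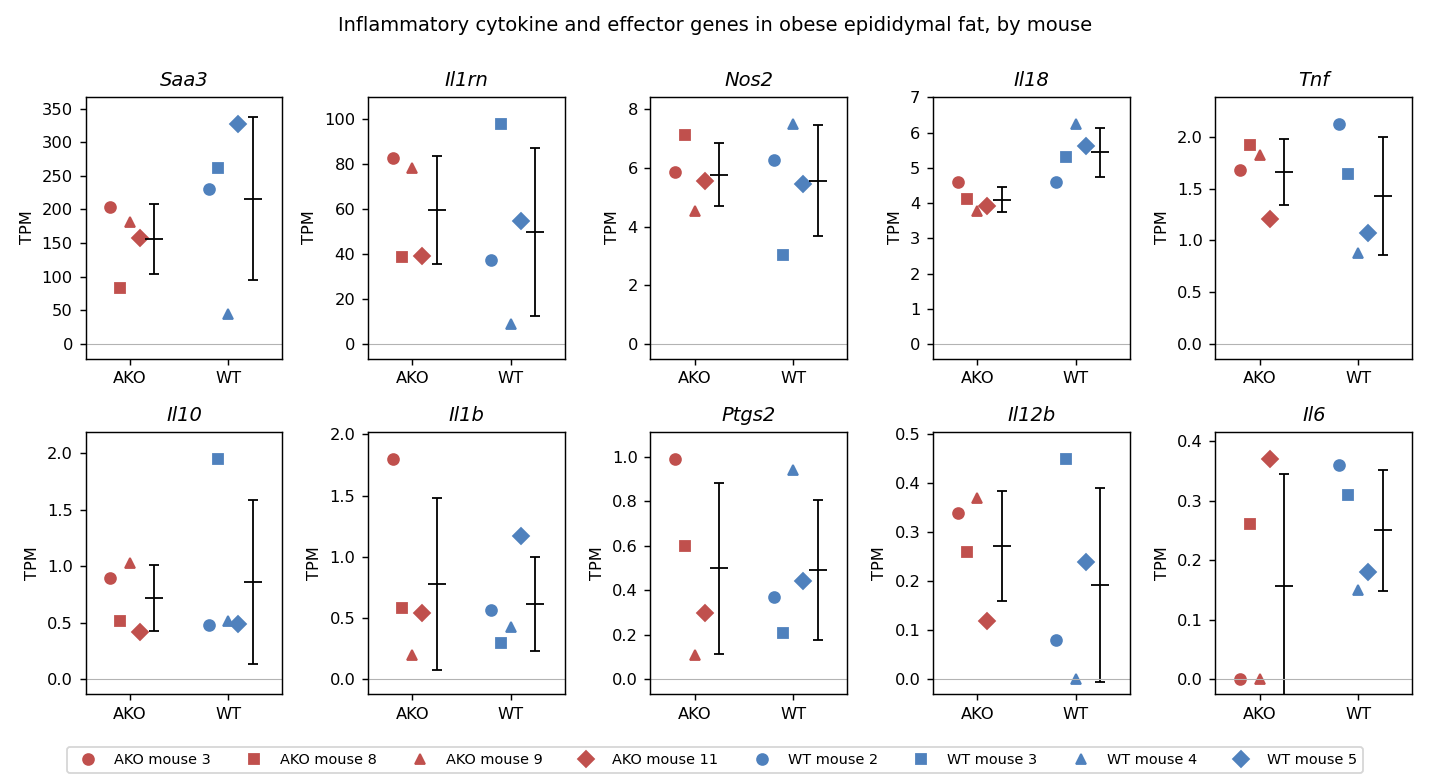
TPM of the 10 members in each mouse, AKO left of WT, ordered by mean level, with a linear scale per gene; black bars are the mean and SD of 4 mice. Il18 lies between 3.77 and 4.59 TPM in AKO and between 4.59 and 6.26 TPM in WT, while the groups overlap widely for the other genes.

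Promoter windows are shown for the most abundant member, Saa3, the least abundant, Il6, and the antagonist gene Il1rn, to set their motif matches side by side. They come from RefSeq (GRCm38.p6) and run from 250 bases before to 50 after the annotated start, 5′ to 3′. Capitals mark matches, on either strand, to the C/EBP motif TTGCNNAA, the AP-1 motif TGANTCA or the NF-kB consensus.
Saa3: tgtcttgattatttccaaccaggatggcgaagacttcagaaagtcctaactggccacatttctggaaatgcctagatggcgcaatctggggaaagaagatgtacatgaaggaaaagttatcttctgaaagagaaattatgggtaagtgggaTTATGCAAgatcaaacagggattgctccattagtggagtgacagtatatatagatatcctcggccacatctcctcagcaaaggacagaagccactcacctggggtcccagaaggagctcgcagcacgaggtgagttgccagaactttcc
Il6: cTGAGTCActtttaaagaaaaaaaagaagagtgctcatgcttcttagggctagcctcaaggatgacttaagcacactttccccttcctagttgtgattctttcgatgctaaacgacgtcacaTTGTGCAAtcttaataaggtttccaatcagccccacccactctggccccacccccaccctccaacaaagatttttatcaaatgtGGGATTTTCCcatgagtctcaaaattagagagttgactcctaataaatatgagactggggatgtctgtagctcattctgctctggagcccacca
Il1rn: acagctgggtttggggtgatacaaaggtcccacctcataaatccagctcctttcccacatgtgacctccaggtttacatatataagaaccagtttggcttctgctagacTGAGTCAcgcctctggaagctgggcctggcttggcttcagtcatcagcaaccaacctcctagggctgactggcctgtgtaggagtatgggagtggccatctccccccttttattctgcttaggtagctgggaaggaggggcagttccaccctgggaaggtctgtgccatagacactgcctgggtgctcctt
The Saa3 window (chr7:46715627-46715926, minus strand) has a C/EBP match at bases -99 to -92 from the start. The Il6 window (chr5:30012864-30013163, plus strand) has an AP-1 match at -249 to -243, a C/EBP match at -128 to -121 and an NF-kB match at -44 to -35. Of 3 windows listed for Il1rn, the one shown (chr2:24336610-24336909, plus strand) has an AP-1 match at -141 to -135 and the others have none of these motifs. Windows were found for 8 of the 10 members. C/EBP matched in 3 of these 8 genes (10.8% of 32851 windows of all genes), AP-1 in 2 (7.81%) and NF-kB in 1 (4.51%), and none of the matches overlapped another. The members are counted by gene, over 10 windows in all, whereas the percentages count single windows, so the 2 are not like for like. Il6, with a match to each motif, was the lowest member, and Saa3, with 1 match, the highest. Ptgs2 also had 1 match, and Tnf, Il1b, Il18 and Il12b had none. Whether matches go with level was not tested.

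Saa3 varied 7.41-fold between mice. It had 203.6, 83.7, 181.0 and 158.0 TPM in AKO mice 3, 8, 9 and 11, against 230.7, 261.3, 44.2 and 327.8 TPM in WT mice 2, 3, 4 and 5. WT held the highest 3 values and also the lowest, so the AKO values lay inside the WT range. The log2 difference was -0.21 (SE 0.60, 95% interval -1.58 to 1.16, limma FDR = 0.946, two-sided exact permutation p = 0.771). This value depended on single mice. Without WT mouse 4 the difference was -0.86, with an unadjusted limma p of 0.0201 and an FDR of 0.997 over all genes. Leaving out WT mouse 5 gave 0.10, leaving out AKO mouse 8 gave 0.06, and leaving out WT mouse 3 gave -0.01. Of the total, 97.3% on average came from 1 of 4 transcript rows, so the sum and that row moved together. In GENCODE M21, 12.1% of the longest Saa3 transcript matched other genes at 95% identity or more, none of them a serum amyloid gene. The paralogs Saa1, Saa2 and Saa4 stayed below 1 TPM in all 8 mice.

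The antagonist gene Il1rn had far more transcript than the agonist gene Il1b. Il1rn, which encodes the receptor antagonist that occupies the IL-1 receptor without signalling, had 82.5, 38.5, 78.0 and 38.9 TPM in AKO mice 3, 8, 9 and 11. In WT mice 2, 3, 4 and 5 it had 37.3, 97.8, 8.83 and 54.6 TPM. The highest and the lowest value were both in WT, an 11.1-fold range. The log2 difference of 0.58 (SE 0.65, 95% interval -0.89 to 2.05, limma FDR = 0.878, exact permutation p = 0.571) became -0.07 without WT mouse 4. Of its 6 transcript rows, row 1 held the most in every mouse, 38.5% to 40.6% of the gene in AKO mice and 35.4% to 51.9% in WT mice. Row 5 varied more, from 8.42% to 25.6% among AKO mice and from 7.93% to 31.7% among WT mice.

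Il1b, which encodes the agonist IL-1β, had 1.80, 0.58, 0.20 and 0.54 TPM in AKO mice and 0.57, 0.30, 0.43 and 1.17 TPM in WT mice. Only AKO mouse 3 and WT mouse 5 exceeded 1 TPM, and the groups overlapped (log2 difference 0.09, exact permutation p = 0.743). Il1rn exceeded Il1b in 8 of 8 mice, by 45.8-fold to 389.8-fold in AKO and by 20.5-fold to 326-fold in WT. The highest ratio of each group fell on its lowest Il1b, 0.20 TPM in AKO mouse 9 and 0.30 TPM in WT mouse 3. At such low levels the ratio is imprecise. An antisense gene, Il1bos, overlaps Il1b in GENCODE M21, and it was listed at 0.03 TPM or less in every library. Whether the counting used strand is not stated in the labels.

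Il18 was the member whose groups came closest to separating. It encodes IL-18, an IL-1 family cytokine that caspase 1 cleaves to its active form. AKO mice 3, 8, 9 and 11 had 4.59, 4.11, 3.77 and 3.93 TPM, and WT mice 2, 3, 4 and 5 had 4.59, 5.30, 6.26 and 5.61 TPM. All AKO mice but mouse 3 lay below every WT mouse, and AKO mouse 3 equalled WT mouse 2. Means were 4.10 ± 0.355 TPM in AKO and 5.44 ± 0.694 TPM in WT (SD, n = 4 each). The log2 difference was -0.33 (SE 0.11, 95% interval -0.59 to -0.08), with an unadjusted limma p of 0.0164, an FDR of 0.831 and an exact permutation p of 0.0571. The smallest p that 4 against 4 mice allow is 0.0286.

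The tables hold 5 rows for Il18, numbered by their order, without saying which transcript each is, and GENCODE M21 lists 4 transcripts. Row 5 had 3.69, 3.27, 3.08 and 2.76 TPM in AKO mice and 2.25, 3.31, 5.07 and 1.6 TPM in WT mice. Row 4 had 0.52, 0.84, 0 and 0.65 TPM in AKO mice and 2.10, 1.54, 0 and 3.8 TPM in WT mice. Rows 4 and 5 thus split the gene unequally, row 4 holding 0% to 20.4% of the total in AKO mice and 0% to 67.7% in WT mice. Taking row 5, the highest, for the gene turned the direction, with a log2 difference of 0.12 (limma FDR = 0.936). Rows listed at 0 can be failed estimates, and rows above 0 in the whole library numbered 66578 to 70720 in AKO and 63143 to 66466 in WT. The part of this wider difference in the Il18 result was not tested.

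**Figure D2:**
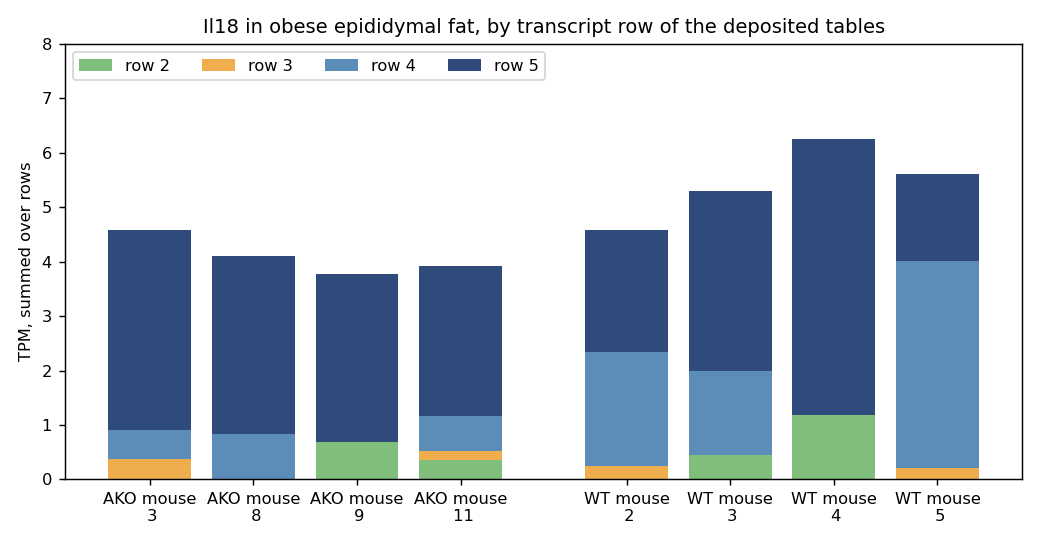
Il18 TPM in each mouse, AKO left of WT, stacked by transcript row of the deposited tables (row 1 is at 0 throughout). Totals reach 3.77 to 4.59 TPM in AKO and 4.59 to 6.26 TPM in WT, and row 4 is above 1 TPM in WT mice 2, 3 and 5 alone.

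Tnf, the founding cytokine of the TNF family, had 1.68, 1.92, 1.83 and 1.21 TPM in AKO mice and 2.13, 1.64, 0.88 and 1.07 TPM in WT mice. WT mice held the highest and the 2 lowest values, and the AKO values lay within the WT range. The log2 difference was 0.15 (SE 0.19, 95% interval -0.28 to 0.59, limma FDR = 0.887, exact permutation p = 0.429).

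Il6 transcripts were barely detected. Il6, which encodes a cytokine that signals through gp130, had 0, 0.26, 0 and 0.37 TPM in AKO mice 3, 8, 9 and 11, against 0.36, 0.31, 0.15 and 0.18 TPM in WT mice 2, 3, 4 and 5. It was listed at 0 in 2 AKO libraries and in 0 WT libraries (exact permutation p = 0.400). Il10, the anti-inflammatory cytokine gene, had 0.90, 0.52, 1.03 and 0.42 TPM in AKO mice, against 0.48, 1.95, 0.52 and 0.49 TPM in WT mice. WT mouse 3 lay far above its group, and without it the log2 difference of -0.06 became 0.18. Il12b, the p40 subunit shared by IL-12 and IL-23, had 0.34, 0.26, 0.37 and 0.12 TPM in AKO mice and 0.08, 0.45, 0 and 0.24 TPM in WT mice. These 3 genes overlapped between the groups and lay below the filter of the test over all genes.

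The mediator enzymes did not separate the genotypes. Nos2, the inducible nitric oxide synthase that turns arginine into nitric oxide, had 5.85, 7.14, 4.55 and 5.57 TPM in AKO mice and 6.28, 3.05, 7.52 and 5.44 TPM in WT mice. Its lowest value, in WT mouse 3, fell in the mouse with the highest Il1rn, and its highest, in WT mouse 4, in the mouse with the lowest Il1rn. The log2 difference was 0.08 (SE 0.23, 95% interval -0.44 to 0.60, limma FDR = 0.946, exact permutation p = 0.8286). Ptgs2, which encodes the inducible cyclooxygenase, had 0.99, 0.60, 0.11 and 0.30 TPM in AKO mice and 0.37, 0.21, 0.94 and 0.44 TPM in WT mice. The groups overlapped over their whole range (log2 difference -0.0028, exact permutation p = 1).

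**Figure D3:**
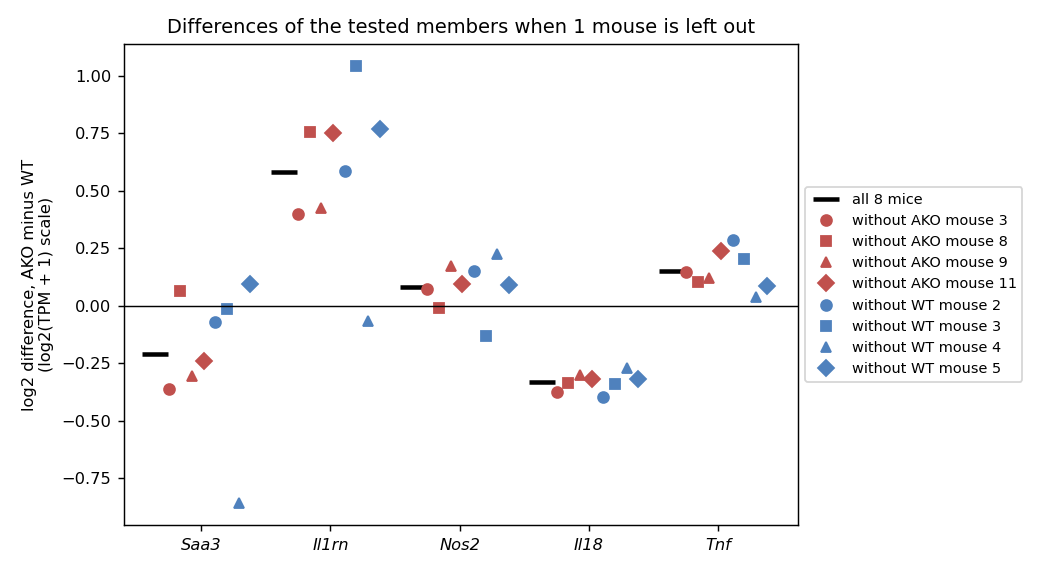
Difference in mean log2(TPM + 1), AKO minus WT, of the 5 tested members with all 8 mice (black bar) and with each mouse left out (points, coloured by the genotype of the mouse left out). Il18 stays between -0.40 and -0.27, while Saa3 reaches -0.86 and Il1rn -0.07 without WT mouse 4.

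Markers of macrophages and of fat cells differed in sign between the genotypes, without passing the threshold. All 10 macrophage markers had positive differences (0 called by limma, 0 at an unadjusted p below 0.05), with summed levels of 3661 to 6506 TPM in AKO and 2232 to 5314 TPM in WT. The 8 markers of lipid-associated macrophages, cells that take up lipid from dying fat cells, were positive too (0 called, 3 at an unadjusted p below 0.05), with sums of 3691 to 7482 TPM in AKO and 899.7 to 6270 TPM in WT. The 7 fat cell markers were negative (0 called, 1 at an unadjusted p below 0.05), with sums of 9185 to 12920 TPM in AKO and 9643 to 15910 TPM in WT. The 6 fibroblast markers were all positive (0 called, 1 at an unadjusted p below 0.05), and T cell markers summed to 9.68 to 29.2 TPM in AKO and 7.97 to 14.1 TPM in WT, highest in AKO mouse 8. Of all genes tested, 53.8% were positive, 2.58% were higher and 2.17% lower in AKO at an unadjusted p below 0.05. In bulk tissue, fewer cells of a type and less RNA per cell cannot be told apart. The part of these shifts in the members' values was not tested.

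Across the 8 mice Il1rn followed the macrophage score. In a set of 15 relations (5 members with 3 marker scores), Il1rn had a Pearson r of 0.92 with the macrophage score (exact permutation p = 0.00412, adjusted p = 0.0309) and a Spearman rho of 0.76 (exact permutation p = 0.0368, adjusted p = 0.184). Without AKO mouse 9 and WT mouse 4, the mice farthest from the median score, r was 0.80. With the score of lipid-associated macrophages r was 0.90 (exact permutation p = 0.00672, adjusted p = 0.0336, rho 0.76, exact permutation p = 0.0368, adjusted p = 0.184), and 0.63 without those 2 mice. With the fat cell score r was -0.85 (exact permutation p = 0.00332, adjusted p = 0.0309, rho -0.76, exact permutation p = 0.0368, adjusted p = 0.184), and -0.81 without AKO mouse 9 and WT mouse 3. These 3 relations were the ones past an adjusted p of 0.05 by r, and 0 passed by rho. Both macrophage scores ranked the 8 mice in the same order, and the fat cell score ranked them in the reverse order. The 3 relations are therefore not separate evidence. Leaving out 1 mouse kept the macrophage r between 0.78 and 0.96. Its adjusted p exceeded 0.05 without AKO mouse 3, 9 or 11 or WT mouse 3 or 4, and was highest, at 0.488, without WT mouse 4.

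Tnf had an r of 0.68 with the macrophage score (exact permutation p = 0.0605, adjusted p = 0.130, rho 0.48, exact permutation p = 0.243, adjusted p = 0.304), which was 0.29 without AKO mouse 9 and WT mouse 4. Nos2 ran the other way, at -0.65 (exact permutation p = 0.0888, adjusted p = 0.148, rho -0.62, exact permutation p = 0.115, adjusted p = 0.192, and r -0.50 without those mice). Il18 had -0.65 (exact permutation p = 0.0771, adjusted p = 0.145, rho -0.635, exact permutation p = 0.0998, adjusted p = 0.192, and r 0.08 without them). Saa3 had 0.57 (exact permutation p = 0.150, adjusted p = 0.187, rho 0.14, exact permutation p = 0.752, adjusted p = 0.752, and r -0.10 without them). Leaving out WT mouse 4 alone gave an r of 0.37 for Tnf, -0.31 for Il18 and -0.12 for Saa3, whereas leaving out AKO mouse 9 alone gave 0.66 for Tnf, -0.53 for Il18 and 0.62 for Saa3. Without WT mouse 2, the r of Tnf was 0.88 with the macrophage score and 0.89 with that of lipid-associated macrophages (exact permutation, adjusted p = 0.0337 for both). By rho the adjusted p of both was then 0.166 (exact permutation). Over all 8 mice, Tnf had an r of 0.70 with the score of lipid-associated macrophages (exact permutation p = 0.0428). Il18 had -0.72 with that score (exact permutation p = 0.0361), and Nos2 0.695 with the fat cell score (exact permutation p = 0.0470). The adjusted p of each was 0.118 (exact permutation). The other relations of Tnf, Il18, Nos2 and Saa3 had an unadjusted exact permutation p above 0.05.

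**Figure D4:**
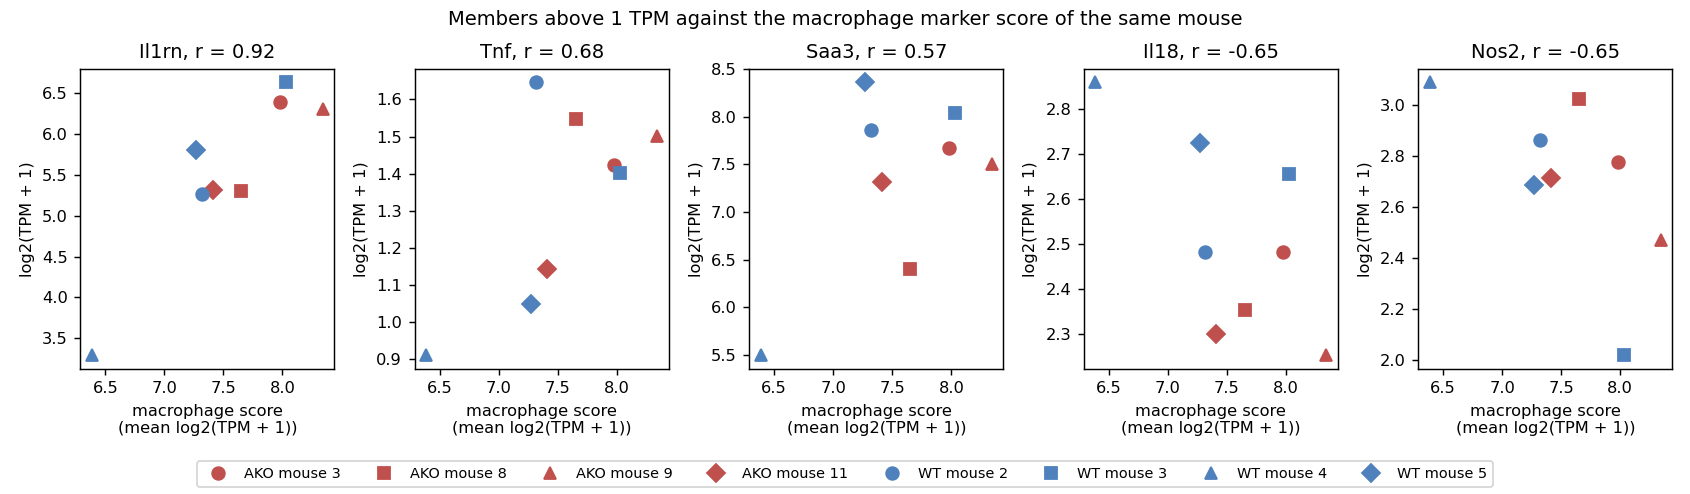
Level of the 5 members above 1 TPM (log2(TPM + 1)) against the macrophage score (mean log2(TPM + 1) of 10 markers) in the same mouse, AKO in red and WT in blue. Il1rn climbs with the score (r = 0.92), Nos2 runs against it (r = -0.65), and WT mouse 4 has the lowest macrophage score in every panel, with the highest Nos2 and Il18 of the 8 mice.

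As a description over 8 mice, the genes whose pattern was most like a member's were taken from all genes tested. Those nearest Il1rn were Arhgap22, Arg1 and the pseudogene Rps16-ps2 (Pearson r of 0.99 each). Nearest Tnf were Neu1 and Il6ra (0.96 and 0.95) and Def6 (0.95). Nos2 was nearest to Zbtb4 (0.98), Kcnj8 (0.98) and Egfl7 (0.97). Il18 was nearest to Orc6 (0.98), Ss18l2 (0.96) and Parn (0.95), and Saa3 to Nup214 (0.98), Lsm4 (0.96) and Mt1 (0.96). Between members, r was 0.81 for Il1rn with Saa3 and -0.74 for Il1rn with Nos2. All these values share the same 8 libraries and the same mouse at the extreme.

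Receptors, processing enzymes and related genes of the same paths did not pass the threshold. Of 45 such genes, 31 passed the filter and 0 were called by limma. Of the 31, 21 were positive and 10 negative (67.7% positive, beside 53.8% of all genes tested), with a median log2 difference of 0.12. At an unadjusted limma p below 0.05 there were 2, Gsdmd and Il10ra, both higher in AKO, as were 2.58% of all genes tested at that p. Il10ra was above that p without any 1 of AKO mice 3, 8 and 9 and WT mice 2, 4 and 5 (p of 0.0696 to 0.124, limma) and in the unfiltered fit (0.0573). Gsdmd was above that p as well when its highest row stood for the gene, with a log2 difference of 0.27 (limma FDR = 0.835).

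In the IL-1 and IL-18 path, 5 of 7 tested genes were positive and 2 negative. Gsdmd encodes gasdermin D, the pore through which cleaved IL-1β and IL-18 leave the cell. It had 31.9, 27.7, 37.4 and 28.9 TPM in AKO mice and 26.3, 25.4, 18.1 and 22.3 TPM in WT mice. Every AKO mouse lay above every WT mouse, as was the case for 1.11% of all genes tested (log2 difference 0.44, limma FDR = 0.831, exact permutation p = 0.0286). Casp1, the protease that cleaves both cytokines, averaged 37.5 ± 7.38 TPM in AKO and 28.1 ± 11.5 TPM in WT, and its adaptor Pycard 27.4 ± 6.06 TPM in AKO and 21.7 ± 7.69 TPM in WT (SD, n = 4 each). The signalling receptor Il1r1 averaged 9.24 ± 1.23 TPM in AKO and 10.6 ± 1.84 TPM in WT, and its partner Il1rap 3.70 ± 0.770 TPM in AKO and 3.56 ± 1.15 TPM in WT. The decoy receptor Il1r2 averaged 0.723 TPM in AKO and 0.973 TPM in WT, and the other agonist, Il1a, 0.173 TPM in AKO and 0.138 TPM in WT. The IL-18 receptor chain Il18r1 averaged 1.12 ± 0.441 TPM in AKO and 0.895 ± 0.344 TPM in WT, and Il18rap 0.848 TPM in AKO and 0.825 TPM in WT.

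For TNF, 2 of 3 tested genes were positive. The receptor Tnfrsf1a averaged 158.9 ± 4.62 TPM in AKO and 166.2 ± 8.50 TPM in WT, and Tnfrsf1b 50.8 ± 12.7 TPM in AKO and 37.6 ± 13.4 TPM in WT. The sheddase Adam17 averaged 29.8 ± 4.59 TPM in AKO and 26.1 ± 6.04 TPM in WT. For IL-6, 2 of 4 were positive, with Il6ra at 22.0 ± 2.48 TPM in AKO and 20.2 ± 3.13 TPM in WT and Il6st, which encodes gp130, at 79.1 ± 3.52 TPM in AKO and 80.8 ± 9.44 TPM in WT. Socs3, a target of the path, averaged 6.67 ± 0.933 TPM in AKO and 5.35 ± 1.74 TPM in WT. Stat3, the transcription factor that IL-6 activates, averaged 55.7 ± 4.64 TPM in AKO and 57.1 ± 7.43 TPM in WT. Both chains of the IL-10 receptor were positive. Il10ra had 23.8, 19.7, 25.5 and 15.5 TPM in AKO mice and 13.9, 20.5, 10.6 and 14.9 TPM in WT mice, with WT mouse 3 inside the AKO range (log2 difference 0.48, limma FDR = 0.831, exact permutation p = 0.114). Il10rb averaged 76.2 ± 20.5 TPM in AKO and 57.4 ± 16.6 TPM in WT. Il12a, Il23a, Il12rb1 and Il12rb2 lay below the filter. Il12rb1 averaged 0.540 TPM in AKO, with 1.13 TPM in AKO mouse 8, and 0.323 TPM in WT, and its medians were 0.375 and 0.33 TPM. Il12rb2 averaged 0.565 TPM in AKO (0.29 to 0.78) and 0.390 TPM in WT (0.28 to 0.45).

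Of the prostaglandin genes, 5 of 9 tested were positive and 4 negative. Ptgs1, the constitutive cyclooxygenase, exceeded Ptgs2 and averaged 8.11 ± 1.81 TPM in AKO and 9.74 ± 1.38 TPM in WT. The prostaglandin E2 receptors Ptger2 and Ptger4 averaged 4.595 ± 0.718 and 12.3 ± 2.85 TPM in AKO, against 3.67 ± 0.554 and 9.54 ± 1.57 TPM in WT. The receptors Ptger3 and Ptger1 ran the other way. Ptger3, the most abundant of these receptors, had 35.61 to 71.06 TPM in AKO and 39.07 to 82.02 TPM in WT (log2 difference -0.1808). Ptger1, below the filter, averaged 0.865 TPM in AKO and 1.133 TPM in WT (log2 difference -0.199). Pla2g4a, the phospholipase that frees arachidonic acid, averaged 7.97 ± 1.28 TPM in AKO and 6.36 ± 1.79 TPM in WT. Both tested genes of arginine and nitric oxide were positive, though the log2 difference of Nos3 was only 0.0039 and its median was lower in AKO. Arg1, the arginase that competes with Nos2 for arginine, averaged 5.88 ± 1.67 TPM in AKO and 4.64 ± 2.69 TPM in WT, and Nos3, the endothelial synthase, 22.8 ± 3.99 TPM in AKO and 22.7 ± 3.47 TPM in WT. Of the acute phase and Toll-like receptor genes, 3 of 4 tested were positive on the log2 scale. These include Hp, whose log2 difference was 0.02 although its mean TPM was lower in AKO. The haptoglobin gene Hp averaged 5013 ± 1316 TPM in AKO and 5237 ± 2456 TPM in WT, and the lipocalin gene Lcn2 13.8 ± 6.56 TPM in AKO and 18.5 ± 16.0 TPM in WT. Tlr2 averaged 7.54 ± 1.56 TPM in AKO and 5.89 ± 1.07 TPM in WT, and Tlr4 18.0 ± 3.36 TPM in AKO and 16.3 ± 3.59 TPM in WT.

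**Figure D5:**
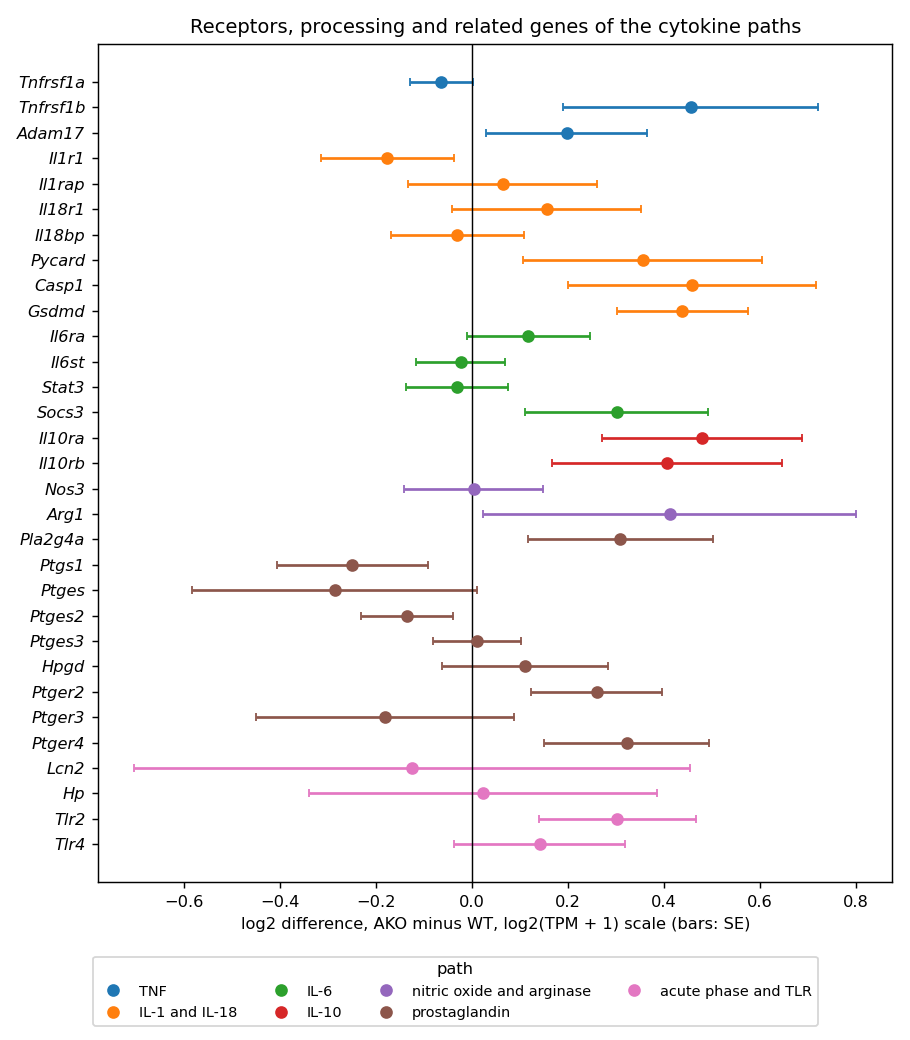
Difference in mean log2(TPM + 1), AKO minus WT, with its SE for the 31 tested receptor, processing and related genes, coloured by path. Gsdmd (0.44) and Il10ra (0.48) are the genes with an unadjusted p below 0.05, and 0 genes passed the FDR threshold.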

How the data were processed

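RNA was measured in 8 epididymal fat samples, 4 AKO and 4 WT, grouped by their titles. Per the labels' protocols, RNA was isolated from frozen fat with Trizol, and an Illumina TruSeq kit served for the libraries. The deposited values are TPM, with 152298 rows per library in steps of 0.01 and often several rows per gene. HISAT2, DESeq2 and mm9 belong to the authors' processing, per the submitters' processing notes, which state no role for them. Which quantifier and annotation they used is not given in the sources used. Since depth cannot be read from TPM, no counting interval is given.

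Symbols were matched through a GENCODE M21 name table (55141 of 55487 identifiers), and rows were summed per gene. Genes reaching 1 TPM in 4 or more samples (14172) were fitted with limma 3.58.1 (R 4.3.3, mean-variance trend) on log2(TPM + 1), which understates the change of low genes. The fit was also run on simulated data, in which only more abundant genes were changed, each by more than the difference of any member. That run therefore covers neither low genes nor differences as small as those of the members. Single values were compared by two-sided exact permutation over samples, and correlations by exact permutation over pairings. The motif search used both strands, and near-identical copies were sought with blastn 2.17.0. The labels number separate mice, and the p-values rest on the spread between the libraries of these animals. For limma, the spread of each gene is also drawn toward the mean-variance trend over all genes tested.

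The members, lists and tests were chosen with earlier results of these data known. All 10 members are named. Named partners are up to 4 per list with the smallest p, plus ligands and receptors of members and the remaining prostaglandin E2 receptors. The most alike genes are the 3 with the highest r, leaving out predicted genes. Alternatives were a pseudocount of 0.1, no filter, median-ratio scaling, the row with the highest mean standing for its gene, and leaving out each mouse.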

Additional observations from a re-analysis of the deposited data

Results flagged for a closer look

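Of 40 groups of 4 mice screened (10 members and 10 marker scores in each genotype), 2 held a mouse far from the other 3, and chance flags about 1 in 20. Il10 had 1.95 TPM in WT mouse 3, against 0.48 to 0.52 TPM in the other WT mice. That mouse also had the highest Il1rn and Il12b and the lowest Nos2 of the 8. The score of epididymal epithelium markers was 0.163 in AKO mouse 11, against 0 to 0.0278 in the other AKO mice, and it reached 0.748 and 0.775 in WT mice 3 and 4.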

How the results depend on the processing

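The count of members called stayed at 0, and that of receptor and processing genes at 0, under a pseudocount of 0.1, no filter, median-ratio scaling, the row with the highest mean standing for its gene, and without each mouse. The number of members above 1 TPM stayed at 5, or 4 when every sample had to pass. Calls over all genes numbered 4, and between 1 and 5 when a mouse was left out, with 1 without AKO mouse 3 and 2 without AKO mouse 11 or WT mouse 2. Relations of members with marker scores past an adjusted p of 0.05 numbered 3, and between 0 and 4 when a mouse was left out, with 0 without AKO mouse 3, 9 or 11 or WT mouse 3 or 4 (alternatives chosen after seeing the data). Under median-ratio scaling with all 8 mice they numbered 4. There Il18 passed with the score of lipid-associated macrophages (r -0.80, exact permutation, adjusted p = 0.0457, and 0.1385 by rho). Direction turned when the highest row stood for the gene for Il18 (0.12), Il6 (0.0101) and Nos2 (-0.0277). It also turned when a mouse was left out for Il1b (-0.15 to 0.26), Il1rn (-0.0676 to 1.04), Il10 (-0.15 to 0.18), Nos2 (-0.13 to 0.22), Ptgs2 (-0.15 to 0.13) and Saa3 (-0.86 to 0.10). For these the cause was not tested. Tnf stayed positive (0.04 to 0.28), as did Il12b, Gsdmd and Il10ra, though Gsdmd and Il10ra did not keep an unadjusted p below 0.05 under every alternative. Without a mouse Il18 stayed at -0.40 to -0.27, with an unadjusted limma p of 0.00763 to 0.0468 and an FDR of 0.332 to 0.9999. No paired analysis was possible because the groups share only the number 3, on different animals. Depth is unknown, and the 5 members below 1 TPM entered the test over all genes in the unfiltered fit alone.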
